A study of Homo sapiens with 32 samples.

Results

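The 6 chemokines CCL3, CCL4, CXCL13, CXCL10, CCL22 and CCL17 and the cytokine IL16 were followed in 2 B cell lymphoma lines treated with an inhibitor of the kinase CSK. The 7 genes were found by their symbols in the deposited expression table, and all 7 were present among its 25066 features, each on 1 row. Their Entrez gene numbers are 6348 for CCL3, 6351 for CCL4, 10563 for CXCL13, 3627 for CXCL10, 6367 for CCL22, 6361 for CCL17 and 3603 for IL16. Bulk RNA of 32 libraries was sequenced. They came from TMD8, an activated B cell-like line of diffuse large B cell lymphoma, and from DOHH2, a line of the germinal centre class. Cells of both lines were Cas9 engineered, and each line was given the CSK inhibitor (CSKi, 500 nM) or its vehicle DMSO for 1, 3, 6 or 24 h. Each of the 16 groups had 2 libraries. The submitters call them biological replicates without saying that they were separate cultures, so p-values measure the spread between these samples.

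CSK adds the inhibitory phosphate to Src family kinases such as LYN, which start signalling from the B cell receptor. Chemokines are small proteins that direct the migration of cells that carry a matching G protein coupled receptor. CCR1 is a receptor of CCL3. CCL3 and CCL4 are known as chemokines that B cells make after stimulation of their antigen receptor. CXCL13 draws CXCR5-bearing B cells and helper T cells into follicles. CXCL10 is an interferon-inducible ligand of CXCR3. CCL22 and CCL17 are both ligands of CCR4. IL16 is made as a long precursor whose C-terminal part is released and attracts cells that carry CD4.

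Promoter windows of 250 bases before an annotated start were at hand for 5 of the 7 genes (9 windows, RefSeq, GRCh38.p14). CCL4 and CCL17 are named only. The 4 windows shown are of CXCL13, CCL3, CXCL10 and CCL22. CXCL13 is the chemokine whose level fell most in TMD8 at 24 h. CCL3 stood lower with CSKi in TMD8 at all 4 times. CXCL10 and CCL22 hold matches to the NF-kB consensus, the preferred site of the NF-kB factors. Capitals mark matches, on either strand, to that consensus, to TATAAA (the core of a TATA box) or to GAAA, any 2 bases and GAAA again, a repeat found in interferon response elements. The windows lie at chr4:77605570-77605819 on the plus strand (CXCL13), chr17:36090144-36090393 on the minus strand (CCL3), chr4:76023498-76023747 on the minus strand (CXCL10) and chr16:57358533-57358782 on the plus strand (CCL22).
CXCL13: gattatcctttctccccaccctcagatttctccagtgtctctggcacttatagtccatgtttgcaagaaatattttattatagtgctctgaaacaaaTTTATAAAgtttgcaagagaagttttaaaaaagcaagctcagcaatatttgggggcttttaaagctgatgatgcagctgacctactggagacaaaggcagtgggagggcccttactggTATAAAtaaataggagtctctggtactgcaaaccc
CCL3: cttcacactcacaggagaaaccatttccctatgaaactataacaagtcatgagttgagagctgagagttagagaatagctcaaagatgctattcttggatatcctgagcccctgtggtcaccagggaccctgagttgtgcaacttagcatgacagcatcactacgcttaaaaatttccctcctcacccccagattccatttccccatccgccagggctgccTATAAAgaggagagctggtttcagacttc
CXCL10: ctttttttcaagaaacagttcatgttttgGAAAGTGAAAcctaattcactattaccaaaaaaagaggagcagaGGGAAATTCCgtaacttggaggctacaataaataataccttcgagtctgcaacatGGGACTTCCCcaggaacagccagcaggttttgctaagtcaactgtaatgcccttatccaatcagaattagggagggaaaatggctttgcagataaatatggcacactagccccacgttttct
CCL22: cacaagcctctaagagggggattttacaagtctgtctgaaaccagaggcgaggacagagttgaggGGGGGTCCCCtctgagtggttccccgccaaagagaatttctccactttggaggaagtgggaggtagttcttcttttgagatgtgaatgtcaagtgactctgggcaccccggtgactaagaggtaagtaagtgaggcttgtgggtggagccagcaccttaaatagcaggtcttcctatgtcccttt
The CXCL10 window held 2 NF-kB consensus matches, ending 167 and 112 bases before the start, and 1 match to the GAAA repeat. The CCL22 window held 1 NF-kB match, and the other 7 windows held none. In the windows shown, TATAAA stood 23 bases before the CCL3 start and 29 bases before the CXCL13 start. Both genes have windows at other annotated starts. Those of CCL3 held no TATAAA, and that of CXCL13 held it 175 bases before its start. The CXCL13 window shown held another pair of TATAAA matches, 1 on each strand, that overlap each other. Of all 35116 windows of this length, 5.21% held an NF-kB match, 10.7% held TATAAA and 3.02% held the GAAA repeat. Reads were counted on hg19 by the submitters, so these windows carry no values of their own.

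The libraries held 12273442 to 24907030 mapped reads. The values are log2 of normalized reads, with a gene without reads set to 0, and the read counts behind them could be recovered. Tests compared log2 values with limma over the 12000 features of highest mean, and a call means a Benjamini-Hochberg adjusted p under 0.05. With 2 libraries per group, groups often fail to overlap without any difference between treatments. The share of all features that did not overlap is not given here, so non-overlap is a description only. CCL3 and CCL4 fell outside those 12000 in both lines. They were tested over 16000 features, as were CCL22 and CCL17 in DOHH2. CXCL13 and CXCL10 lay outside those 16000 in DOHH2. The 6 B cell markers had 10 or more reads in every library. T and NK cell markers summed to 33 to 83 reads per TMD8 library and 207 to 417 per DOHH2 library. In TMD8 the myeloid markers summed to 937 to 1552 reads, nearly all CD68 (893 to 1456), while CD14 had 0 to 9 reads. In DOHH2 they summed to 127 to 263 reads, mostly LYZ (87 to 176). The follicular dendritic and stromal markers summed to 277 to 738 reads in TMD8, mostly COL1A1 (217 to 640), and to 68 to 216 in DOHH2. The dendritic markers summed to 112 to 378 reads in TMD8, nearly all CD1C (111 to 375), and to 85 to 245 in DOHH2. In bulk RNA, fewer cells of a kind and less RNA per cell cannot be told apart. The 4 DOHH2 libraries at 24 h stood against their labels. CSKi replicate 2 was nearer to DMSO replicate 1 than to CSKi replicate 1, with SDs of 0.218 and 0.381 for the log2 differences across features, and CSKi replicate 1 was nearer to DMSO replicate 2 (0.275). Tests of the members in DOHH2 at 1, 3 and 6 h are therefore given with and without those 4 libraries, and no direction is drawn from DOHH2 at 24 h.

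CCL3 and CCL4, which neighbour each other in the GRCh38.p14 annotation, stood lower in both CSKi libraries than in both DMSO libraries of TMD8 at all 4 times. CCL3 had 11 and 14 reads at 1 h in CSKi-treated TMD8 cells, against 51 and 65 reads in DMSO-treated cells. At 3 h it had 4 and 5 reads with CSKi, against 21 and 22 with DMSO. At 6 h it had 9 and 5 reads with CSKi, against 23 and 25 with DMSO. CCL3 was lower in both CSKi libraries than in both DMSO libraries at each of these times, and the groups did not overlap. At 24 h the CSKi libraries held 1 and 9 reads, against 19 and 29 in the DMSO libraries, so the groups again did not overlap, although the CSKi pair differed widely (log2 values of 0.99 and 4.16).

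In log2 normalized reads, the CCL3 difference of CSKi minus DMSO in TMD8 was -2.02 ± 0.59 at 1 h, -2.44 ± 0.59 at 3 h, -1.76 ± 0.59 at 6 h and -2.64 ± 0.59 at 24 h (SE of the fit, n = 2 and 2). By limma over 16000 features CCL3 fell at 3 h (adjusted p = 0.0146) and at 24 h (adjusted p = 5.81e-04), while 1 h (adjusted p = 0.539) and 6 h (adjusted p = 0.0620) missed the threshold. The shares of all 16000 features called were 0.0312% at 1 h, 3.36% at 3 h, 8.88% at 6 h and 41.5% at 24 h. Of the 7 members, 0 were called at 1 h, 3 at 3 h, 1 at 6 h and 5 at 24 h over these features. CCL3 and IL16 had an unadjusted p under 0.05 at 1 h. Pooled over both libraries and scaled for depth, CCL3 reads were 4.06-fold lower with CSKi at 1 h (95% exact interval 2.62 to 6.54), 5.37-fold lower at 3 h, 3.25-fold lower at 6 h and 3.76-fold lower at 24 h. These intervals cover counting error only. The call at 3 h was lost without any 1 of the 4 libraries at that time (adjusted p 0.0882 to 0.154). Without replicate 1 of the CSKi libraries, the 24 h difference was -1.06 (adjusted p = 0.0834). With weights from the recovered read counts (limma-voom) CCL3 was also called at 1 h (adjusted p = 0.0132) and 6 h (adjusted p = 0.0162).

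CCL4 in TMD8 had 12 and 22 reads at 1 h with CSKi, against 27 and 30 with DMSO, a log2 difference of -0.62 ± 0.57 that missed the threshold (limma adjusted p = 0.986). At 3 h it had 2 and 0 reads with CSKi, against 13 and 10 with DMSO. At 6 h it had 2 and 4 reads with CSKi, against 13 and 25 with DMSO. At 24 h it had 5 and 2 reads with CSKi, against 17 and 17 with DMSO. No CSKi library reached the lower DMSO library at any time. CCL4 fell by 3.49 ± 0.57 on the log2 scale at 3 h (limma adjusted p = 1.90e-04). It fell by 2.59 at 6 h (adjusted p = 0.00261) and it fell by 2.10 at 24 h (adjusted p = 0.00355). The log2 value at 3 h rests on 1 library without a read. The pooled reads were 12.9-fold lower with CSKi at 3 h, with an interval of 3.19 to 113 from counting error alone, and 5.99-fold lower at 6 h. The 3 h call held without any 1 of its 4 libraries, whereas the 6 h call was lost without DMSO replicate 2 (adjusted p = 0.0717) or CSKi replicate 1 (0.0683), and the 24 h call without CSKi replicate 2 (0.0752). The response of CCL4 in TMD8 differed between times (F test in limma over 16000 features, adjusted p = 0.0399, in a comparison where 28.5% of features were called), and that of CCL3 was not called (adjusted p = 0.819).

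In DOHH2, CCL3 was lower with CSKi at 1 h. It had 7 and 6 reads in the CSKi libraries, against 52 and 44 in the DMSO libraries, which did not overlap. The log2 difference was -2.72 ± 0.51 (n = 2 and 2), and CCL3 fell by limma over 16000 features (adjusted p = 0.0353), a comparison in which 0.288% of features were called. The pooled reads were 6.70-fold lower (counting interval 3.74 to 13.05). Without the 4 libraries at 24 h the adjusted p was 0.00109, with 1.39% of features called. Without any 1 library at 1 h the call was lost (adjusted p 0.162 to 0.462). At 3 h CCL3 had 16 and 12 reads with CSKi, against 13 and 23 with DMSO, and at 6 h 5 and 7 reads with CSKi, against 3 and 5 with DMSO. The groups overlapped at both times, and neither was called (adjusted p = 0.935 and 0.791 with the 24 h libraries, where 1.79% and 0.625% of features were called, and 0.864 and 0.628 without them). A change of the CCL3 response between times in DOHH2 was not called (limma F test over 16000 features with the 24 h libraries, adjusted p = 0.289). Nor was the response at 3 h or 6 h against that at 1 h (limma adjusted p = 0.319 and 0.238).

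The vehicle level of CCL3 in DOHH2 itself differed between times. Its mean log2 value with DMSO was 6.18 ± 0.28 at 1 h, 4.59 ± 0.65 at 3 h and 2.34 ± 0.50 at 6 h (SD, n = 2 each). The vehicle libraries at 6 h were 3.84 lower on the log2 scale than those at 1 h, with limma adjusted p = 3.86e-04 in the fit with the 24 h libraries (14.5% of features called) and 1.17e-06 without them (31.9% called). Those at 3 h were 1.59 lower than those at 1 h, which missed the threshold with the 24 h libraries (adjusted p = 0.0666, 9.1% called) and passed it without them (0.0137, 23.8% called). CCL4 in DOHH2 had 8 and 2 reads at 1 h with CSKi, against 16 and 15 with DMSO. The treatments did not overlap, but the difference of -1.79 ± 0.77 missed the threshold (adjusted p = 0.851 with the 24 h libraries and 0.176 without them). At 3 and 6 h, CCL4 had 3 to 9 reads in CSKi libraries and 3 to 8 in DMSO libraries. The CCL4 response was lower in TMD8 than in DOHH2 by 3.32 log2 at 3 h, with adjusted p = 0.154 in the fit of all libraries and 0.0429 without the DOHH2 24 h libraries. The shares of features called there were 0.781% with and 3.15% without those libraries. The CCL4 line difference was 1.17 at 1 h and -2.66 at 6 h and missed the threshold with (adjusted p = 0.999 and 0.297) and without (0.868 and 0.114) them. For CCL3 the same line difference was 0.70 at 1 h, -2.23 at 3 h and -2.23 at 6 h. It missed the threshold with (adjusted p = 0.999, 0.368 and 0.362) and without (0.95, 0.240 and 0.245) those libraries. At 6 h, 1.36% of features were called with them and 4.18% without. CCL3 and CCL4 have near-identical gene copies. CCL3L1, CCL3L3, CCL4L1 and CCL4L2 had 0 to 9 reads per library, so how the counting divided reads between copies is uncertain. CCL3 also overlaps an antisense gene in the annotation. The libraries were made with a stranded kit, and no source used here gives the strand setting of the counting.

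**Figure D1:**
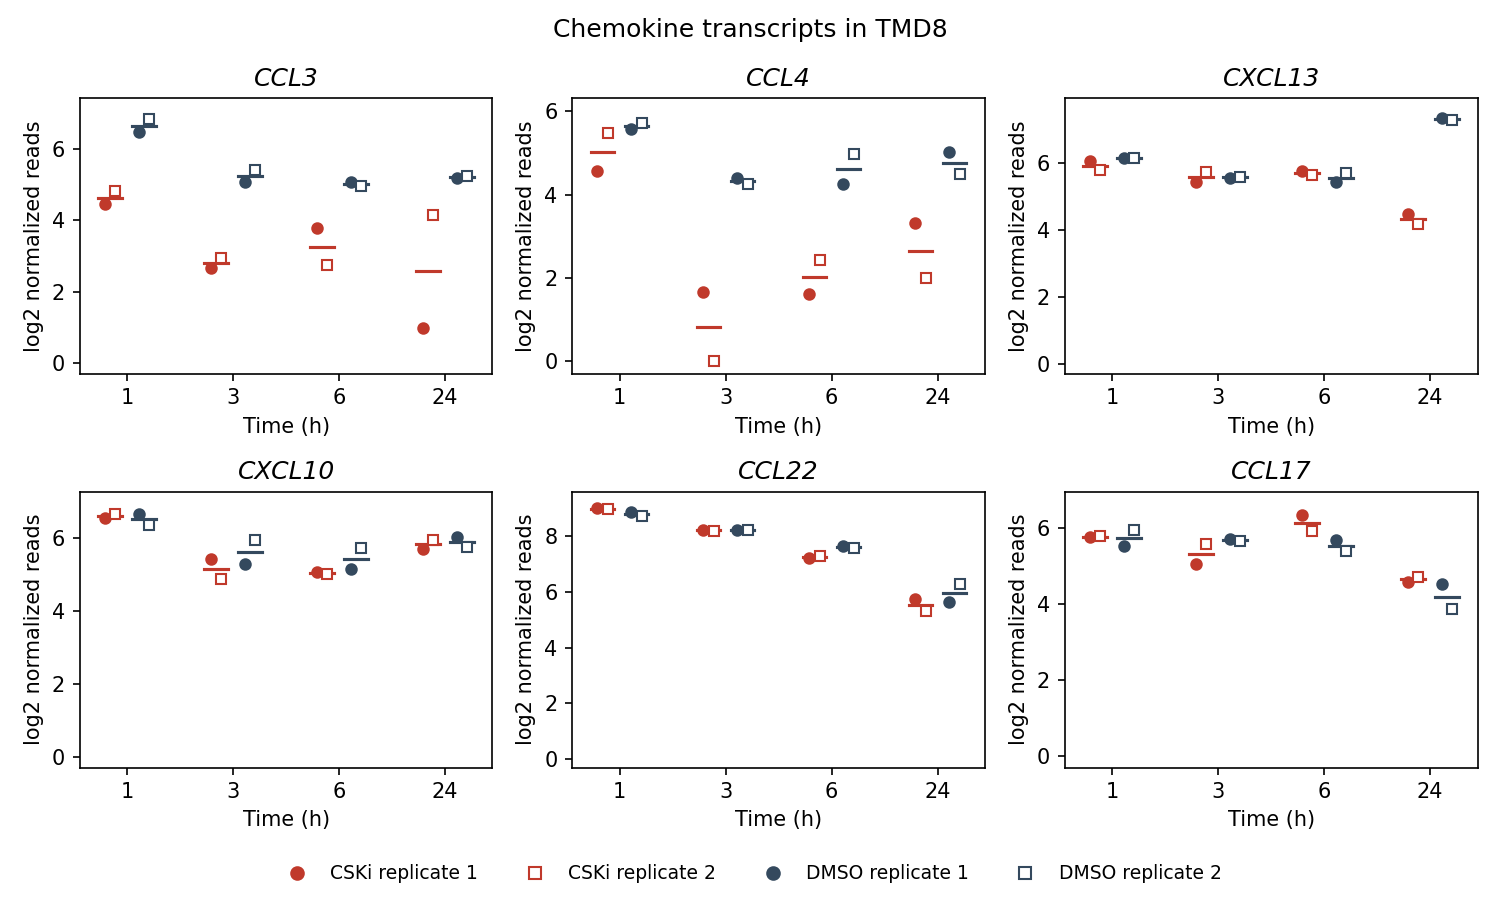
Log2 normalized reads of the 6 chemokines in TMD8 at each time (h), with CSKi in red left of DMSO in dark blue. Each symbol is 1 library (filled, replicate 1; open, replicate 2) and the short line is the mean of 2. CCL3 and CCL4 sit lower with CSKi at 3, 6 and 24 h, CXCL13 separates at 24 h, where CSKi libraries are at 4.45 and 4.16 and DMSO libraries at 7.32 and 7.28, and CCL22 declines with time in both treatments.

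CXCL13, the follicular B cell attractant, changed late. It had 11 and 9 reads at 24 h in CSKi-treated TMD8 cells, against 84 and 118 reads in DMSO-treated cells. Their log2 values were 4.45 and 4.16 with CSKi, against 7.32 and 7.28 with DMSO. CXCL13 was far lower in both CSKi libraries, with no overlap, and fell by 2.99 ± 0.24 on the log2 scale, or 7.97-fold (limma over 12000 features, adjusted p = 1.10e-10, n = 2 and 2). The call held without any 1 of the 4 libraries (adjusted p 8.99e-11 to 2.49e-08). Before that the treatments lay close together. At 1 h CXCL13 had 33 and 27 reads with CSKi, against 40 and 40 with DMSO. At 3 h it had 27 and 34 reads with CSKi, against 29 and 25 with DMSO, and at 6 h 35 and 37 reads with CSKi, against 29 and 41 with DMSO. The groups overlapped at 3 and 6 h but not at 1 h, and the log2 differences of -0.23, -0.0025 and 0.14 missed the threshold (adjusted p 0.787 to 0.998).

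The vehicle level of CXCL13 was 7.30 ± 0.03 at 24 h, against 6.13 ± 0.0021 at 1 h (SD of log2 values, n = 2 each), and rose by 1.17 ± 0.24 (limma adjusted p = 2.62e-04). With CSKi it was 4.31 ± 0.21 at 24 h, against 5.90 ± 0.19 at 1 h, a change that was not tested. The response to CSKi differed between times (F test, adjusted p = 5.77e-08). In DOHH2, CXCL13 had 1 read in 1 of 16 libraries, so a response there could not be measured. Over the 12000 features in TMD8, CSKi against DMSO gave calls for 0.05% at 1 h, 4.73% at 3 h, 12.6% at 6 h and 54% at 24 h. Of the 5 members among those features, 0 were called at 1 h, 1 at 3 h, 0 at 6 h and 3 at 24 h. At an unadjusted p under 0.05 there was 1 at 1 h (IL16) and 1 at 6 h (CCL22), and limma-voom called 0 of the 5 at both times. The median difference over all features at 24 h was 0.02, and that over the 5 members was -0.07. The share of members called at 24 h is near that of all features.

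CXCL10, an interferon-induced ligand of CXCR3, was not called at any time in TMD8. At 3 h it had 27 and 19 reads with CSKi, against 24 and 32 with DMSO, and at 6 h 22 and 24 with CSKi, against 24 and 42 with DMSO. At 1 h it had 47 and 50 reads with CSKi, against 58 and 47 with DMSO, and at 24 h 26 and 31 with CSKi, against 34 and 41 with DMSO. In log2 normalized reads the treatments overlapped at 1, 3 and 24 h, and at 6 h both CSKi libraries (5.07 and 5.01) lay just under the lower DMSO library (5.13). The log2 differences ran from -0.46 ± 0.28 at 3 h to 0.08 ± 0.28 at 1 h, with limma adjusted p 0.427 to 0.997. Its vehicle level differed with time. With DMSO it fell by 1.08 ± 0.28 log2 at 6 h relative to 1 h (adjusted p = 0.00559) and by 0.91 at 3 h (adjusted p = 0.0224), where 23.5% and 19.4% of features were called. At 24 h the difference from 1 h was -0.63 and missed the threshold (adjusted p = 0.0669, 46.7% of features called).

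CCL22 and CCL17, the CCR4 ligands, lie on either side of CX3CL1 in the GRCh38.p14 annotation. In TMD8 at 1 h, CCL22 had 256 and 247 reads with CSKi, against 269 and 243 with DMSO, and at 3 h 188 and 190 with CSKi, against 186 and 155 with DMSO. At 6 h it had 96 and 117 reads with CSKi, against 137 and 151 with DMSO. The 6 h groups did not overlap, but the log2 difference of -0.36 ± 0.17 missed the threshold (limma adjusted p = 0.177). At 24 h CCL22 had 27 and 20 reads with CSKi, against 26 and 59 with DMSO, with log2 values of 5.75 and 5.32 with CSKi, against 5.63 and 6.28 with DMSO. The groups overlapped at 24 h. The log2 difference of -0.43 ± 0.17 passed the threshold there (adjusted p = 0.0354), and without replicate 2 of the DMSO libraries it was -0.10 (adjusted p = 0.669) and without replicate 2 of the CSKi libraries -0.21 (adjusted p = 0.353). It also missed the threshold with limma-voom (adjusted p = 0.134), so this call rests on single libraries.

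The main movement of CCL22 was with time. With DMSO its log2 value was 8.81 ± 0.10 at 1 h, 8.22 ± 0.0078 at 3 h, 7.61 ± 0.05 at 6 h and 5.96 ± 0.46 at 24 h (SD, n = 2 each). Relative to 1 h it fell by 0.58 at 3 h (limma adjusted p = 0.0158), by 1.20 at 6 h (1.02e-05), and at 24 h it fell by 2.85 ± 0.17, or 7.20-fold (1.08e-12). Of all features, 46.7% were called at 24 h against 1 h. CCL17 in TMD8 had 27 and 27 reads at 1 h with CSKi, against 26 and 35 with DMSO, and at 3 h 21 and 31 with CSKi, against 32 and 26 with DMSO. At 6 h it had 53 and 45 reads with CSKi, against 35 and 33 with DMSO. At 24 h it had 12 and 13 reads with CSKi, against 12 and 11 with DMSO. In log2 normalized reads the CSKi libraries stood above the DMSO libraries at 6 h (log2 difference 0.60 ± 0.30) and 24 h (0.45 ± 0.30). Both differences missed the threshold (limma adjusted p = 0.208 and 0.207). At 24 h the closest libraries had 12 reads each, at 4.58 with CSKi and 4.52 with DMSO. The pooled reads there were 1.39-fold higher with CSKi, with a counting interval of 0.756 to 2.56. With DMSO, CCL17 fell by 1.53 ± 0.30 at 24 h relative to 1 h (adjusted p = 1.53e-04). By the F test over vehicle times, all 5 members among the 12000 features were called in TMD8 (adjusted p 3.53e-12 for CCL22 to 0.00819 for CXCL10), where 58.4% of all features were. CCL3 (0.0754) and CCL4 (0.220) were not called over 16000 features, of which 44.4% were.

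**Figure D2:**
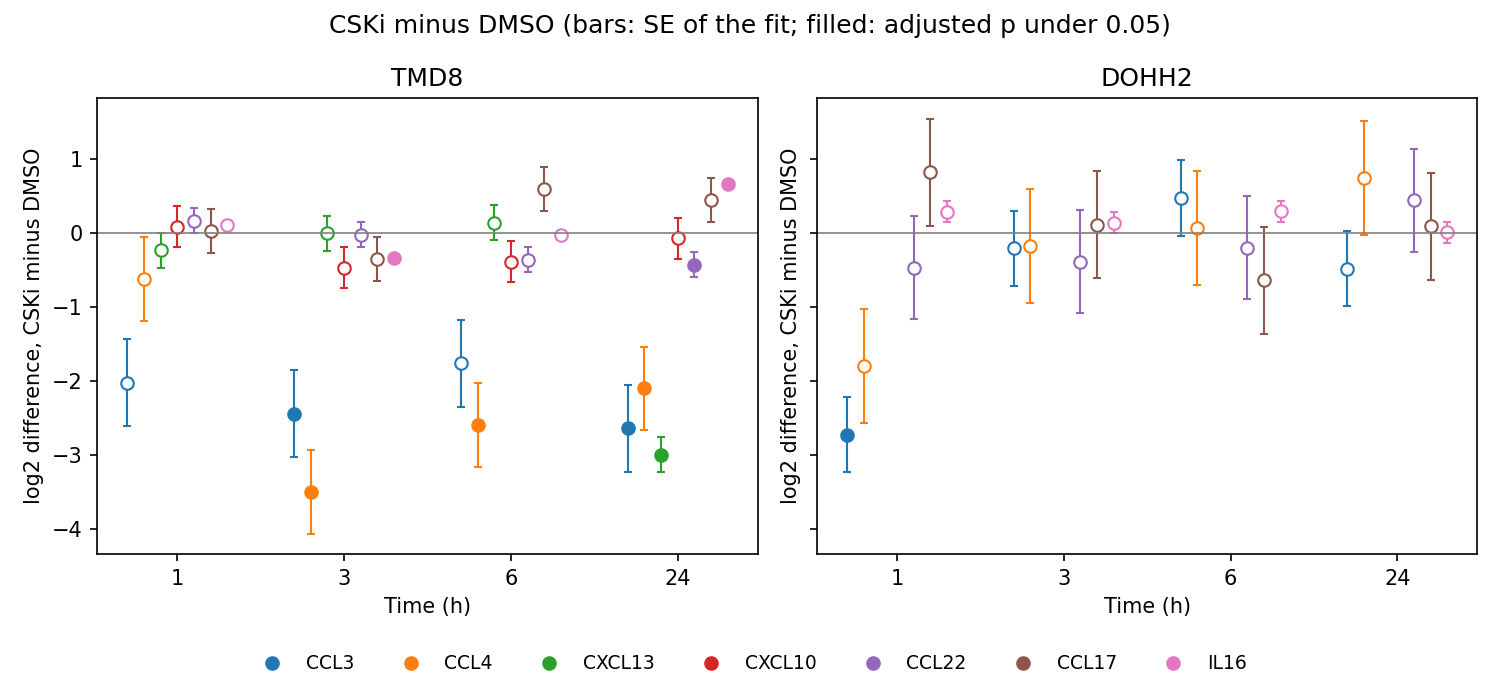
Log2 difference of CSKi minus DMSO for each member by time (h), TMD8 on the left and DOHH2 on the right, with the SE of the limma fit and n = 2 and 2. Filled points have an adjusted p under 0.05, over 12000 features where the gene was among them and 16000 otherwise. CXCL13 and CXCL10 are not drawn in DOHH2, where they lay outside both, and the DOHH2 24 h libraries stood against their labels. In TMD8 CCL4 lies lowest at 3 h (-3.49), CCL3 lies between -1.76 and -2.64 at all 4 times, and CXCL13 reaches -2.99 at 24 h.

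IL16 had 2772 to 5053 reads per TMD8 library, and its response in TMD8 differed in direction between times. At 3 h its log2 values were 12.10 and 12.07 with CSKi, against 12.46 and 12.38 with DMSO. At 24 h they were 13.30 and 13.22 with CSKi, against 12.63 and 12.57 with DMSO. Both CSKi libraries lay below both DMSO libraries at 3 h and above them at 24 h, with no overlap. IL16 fell by 0.33 ± 0.04 at 3 h, or 1.26-fold (limma adjusted p = 3.88e-06), and rose by 0.66 ± 0.04 at 24 h, or 1.58-fold (9.59e-13, n = 2 and 2 at each time). Both calls held without any 1 library. In 1 fit of all 32 libraries the 3 h call was lost (adjusted p = 0.183).

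At 1 h IL16 stood at 12.63 and 12.64 with CSKi, against 12.54 and 12.50 with DMSO. The CSKi libraries were the higher pair, but the difference of 0.11 ± 0.04 missed the threshold (limma adjusted p = 0.933). At 6 h the values were 12.40 and 12.35 with CSKi, against 12.41 and 12.38 with DMSO, a difference of -0.02 ± 0.04 between groups that overlapped (adjusted p = 0.841). The difference of responses between times was called (F test, adjusted p = 1.32e-11), in a comparison where 39.4% of features were called. CXCL13 and IL16 were the 2 members of 5 called there. CXCL10 (adjusted p = 0.570), CCL17 (0.217) and CCL22 (0.123) were not. IL16 overlaps STARD5 in the annotation, a gene with 145 to 321 reads per TMD8 library, fewer than those of IL16 in every library.

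In DOHH2, IL16 stood higher with CSKi at 1 and 6 h. At 1 h its log2 values were 11.99 and 12.08 with CSKi, against 11.77 and 11.73 with DMSO. At 3 h they were 11.79 and 11.94 with CSKi, against 11.70 and 11.75 with DMSO, and at 6 h 12.13 and 12.22 with CSKi, against 11.87 and 11.88 with DMSO. The CSKi libraries were the higher pair at all 3 times, without overlap, which with 2 libraries per group is no evidence by itself. The differences of 0.29 at 1 h, 0.14 at 3 h and 0.30 at 6 h were not called in the fit with the 24 h libraries (limma adjusted p = 0.959, 0.735 and 0.388), where 0.375%, 2.62% and 0.883% of features were. IL16 had an unadjusted p above 0.05 at all 3 times over 12000 features, and limma-voom called it at 0 of them. Without those 4 libraries, limma called IL16 at 1 h (adjusted p = 3.83e-04) and at 6 h (6.32e-05) but not at 3 h (0.0523). In that fit 2.05%, 14.5% and 13.6% of features were called at 1, 3 and 6 h. At 24 h the DOHH2 values were 11.39 and 11.85 with CSKi, against 11.86 and 11.36 with DMSO. CSKi replicate 2 and DMSO replicate 1 were the high pair, the same pairing as over all features.

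**Figure D3:**
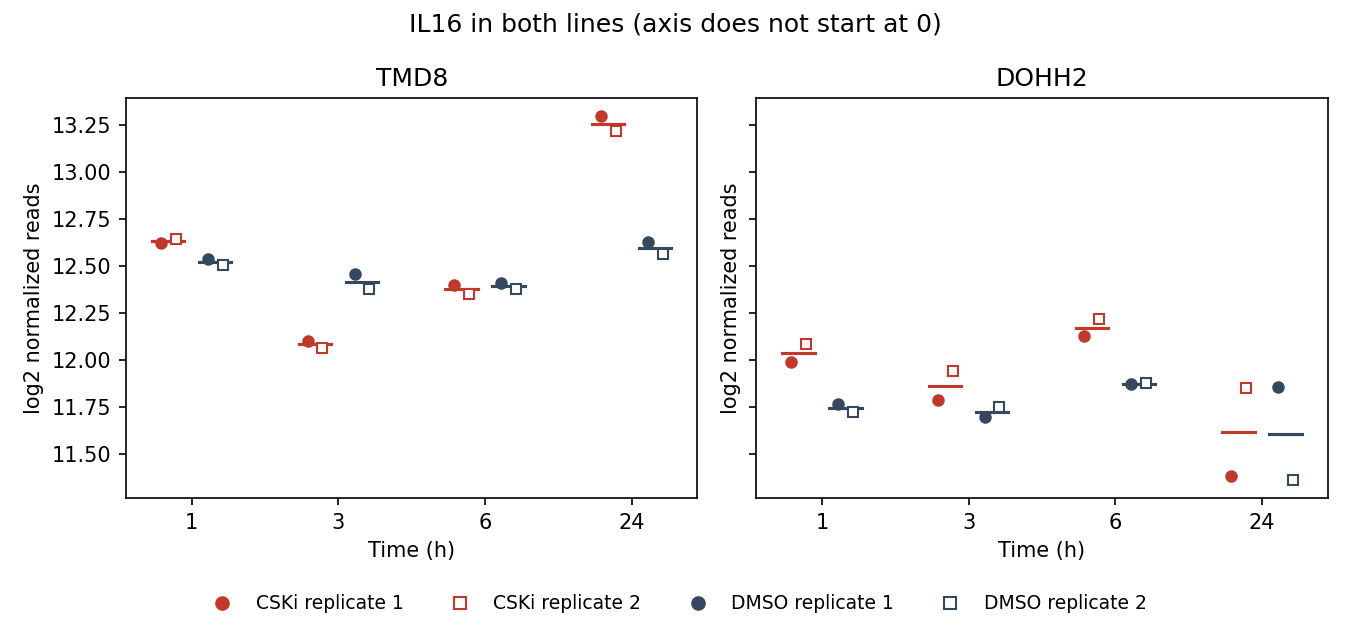
Log2 normalized reads of IL16 by time (h), TMD8 left and DOHH2 right, with CSKi in red left of DMSO in dark blue. Symbols are single libraries (filled, replicate 1; open, replicate 2), lines are means of 2, and the axis does not start at 0. In TMD8 the CSKi pair lies below DMSO at 3 h and above it at 24 h, and in DOHH2 it lies above at 1, 3 and 6 h.

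The IL16 response was set between the lines directly. TMD8 minus DOHH2 was -0.47 at 3 h and -0.32 at 6 h, neither called with all libraries (limma adjusted p = 0.186 and 0.490, 1.26% and 2.08% of features called) and both called without the DOHH2 24 h libraries (7.24e-05 and 0.00312, with 4.82% and 5.98% of features called). At 1 h it was -0.18 (adjusted p = 1.00 with and 0.476 without them, where 0.142% and 0.45% of features were called). At 24 h the difference was 0.65 ± 0.16 (adjusted p = 0.00349, 32.6% of features called), a value that rests on the DOHH2 libraries that stood against their labels.

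The vehicle levels of the members differed between lines. CXCL13 had 406 reads over the 8 DMSO libraries of TMD8 and 1 read over those of DOHH2. CXCL10 had 302 reads over the TMD8 and 5 over the DOHH2 DMSO libraries. CCL22 had 1226 reads over the TMD8 DMSO libraries and 6 over those of DOHH2. Scaled for depth, CCL22 reads were 216-fold higher in TMD8 (exact counting interval 99.1 to 590.4) and CXCL10 reads 63.9-fold higher (27.1 to 198). For CXCL13 the ratio was 429.7, with an interval of 76.7 to 17010 because of the single DOHH2 read. These 3 chemokines were read in every TMD8 library, and in DOHH2 they were at 0 to 2 reads per library.

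CCL17 had 210 reads over the TMD8 DMSO libraries and 38 over those of DOHH2, 5.85-fold higher in TMD8. CCL4, with 152 reads in TMD8 and 56 in DOHH2, was 2.87-fold higher in TMD8. CCL3, with 255 reads in TMD8 and 146 in DOHH2, was 1.85-fold higher, and IL16, with 28836 reads in TMD8 and 18488 in DOHH2, 1.65-fold higher. In log2 values IL16 was higher in TMD8 by 0.74 ± 0.06 (limma over 12000 features, adjusted p = 1.43e-11, n = 8 and 8), where 89.1% of features were called. Over 16000 features, 85.7% were called and 43.5% were called higher in TMD8. The 5 members that also lay within the 16000 of each line alone were all called higher in TMD8. Their differences ran from 0.74 for IL16 to 7.20 for CCL22. CCL22 lay at place 15987 by mean in DOHH2, with 6 reads over the 8 DMSO libraries, so its value describes detection. Levels were known when the genes were chosen, so these calls are a description. CXCL13 and CXCL10 lay among the 16000 of both lines only through TMD8, where they are high. Their differences of 6.07 and 5.45 are therefore given without a test. The same 5 were also called higher in TMD8 at 1, 3 and 6 h alone, in fits with (84.3% of features called) and without (85.5%) the DOHH2 24 h libraries. CCL17 had 2 to 10 reads per DOHH2 library and was not called at 1, 3 or 6 h there, with limma adjusted p of 0.974, 0.978 and 0.804 with the 24 h libraries and 0.636, 0.95 and 0.608 without them. CCL3 was the member whose lines came closest early on, at 6.65 ± 0.25 in TMD8 and 6.18 ± 0.28 in DOHH2 with DMSO at 1 h (SD of log2 values, n = 2 each).

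**Figure D4:**
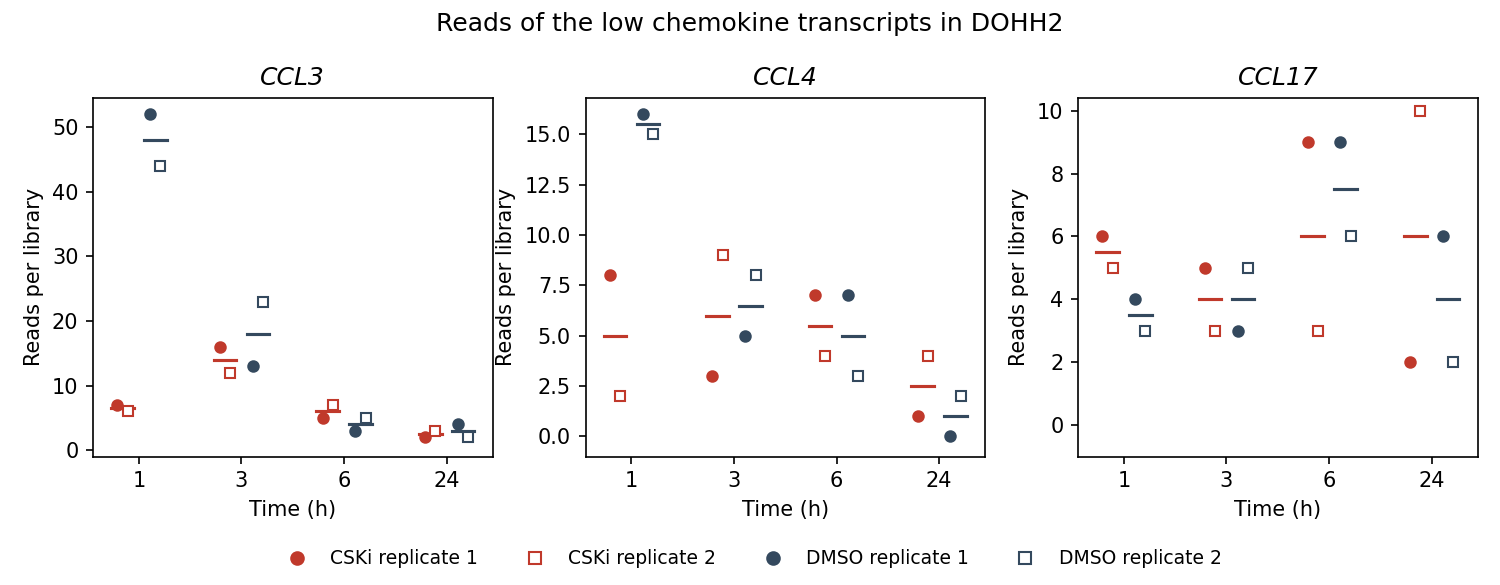
Reads per library of CCL3, CCL4 and CCL17 in DOHH2 by time (h), with CSKi in red left of DMSO in dark blue, symbols for single libraries (filled, replicate 1; open, replicate 2) and lines for means of 2. CCL3 has 7 and 6 reads with CSKi, against 52 and 44 with DMSO, at 1 h, and few reads in both treatments at 6 and 24 h.

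Of the receptors, CXCR5, CXCR4 and CCR7 had 458 or more reads in every TMD8 library, while the CCR4 that binds CCL22 and CCL17 had 0 to 1 reads per library and the CXCL10 receptor CXCR3 had 5 to 19. Of 25 receptor genes in the table, 7 were among the 12000 features in TMD8. Of those, 2 rose and 1 fell at 3 and at 6 h, and 3 rose and 1 fell at 24 h, where 4.73%, 12.6% and 54% of all features were called. CXCR5, the CXCL13 receptor, fell with CSKi in TMD8 by 0.40 ± 0.05 at 3 h, by 0.21 at 6 h and by 0.42 at 24 h (limma adjusted p = 1.24e-05, 0.00739 and 3.50e-07). In DOHH2, CXCR5 fell by 0.56 ± 0.10 at 1 h (adjusted p = 0.0222, and 2.64e-07 without the 24 h libraries). Its differences there of 0.15 at 3 h and -0.09 at 6 h were not called without those libraries (limma adjusted p = 0.0824 and 0.350). In that setting the CXCR5 response of TMD8 minus DOHH2 was 0.54 at 1 h and -0.55 at 3 h (adjusted p = 2.86e-04 and 6.02e-05). At 6 h it was -0.13 and was not called (adjusted p = 0.454). CCR7, the receptor of CCL19 and CCL21, rose in TMD8 by 0.52, 0.63 and 1.34 at 3, 6 and 24 h, and CXCR4, the CXCL12 receptor, by 0.55, 0.61 and 0.94 (adjusted p 7.08e-05 or lower). CD4, the receptor named for IL16, had 12 to 41 reads per TMD8 library and rose by 1.13 ± 0.41 at 24 h (adjusted p = 0.0213). Over 16000 features CCR1, a CCL3 receptor, fell with CSKi in TMD8 by 2.47 at 3 h and by 2.17 at 6 h (adjusted p = 2.10e-04 and 4.79e-04). CCR1 had 4 to 28 reads in CSKi libraries and 20 to 33 in DMSO libraries of that line. Its mean log2 value over all 4 times was 4.24 with CSKi and 5.47 with DMSO, a smaller gap than at 3 and 6 h. The CCR1 differences at 1 and 24 h are not given here, so no lasting fall is drawn.

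Of 42 other chemokine ligands in the table, CX3CL1 was the 1 among the 12000 features in TMD8 and none was in DOHH2. CX3CL1, a membrane-bound chemokine that lies between CCL22 and CCL17, rose with CSKi in TMD8 by 0.34 ± 0.10 at 3 h, by 0.54 at 6 h and by 0.78 at 24 h (limma adjusted p = 0.0468, 3.58e-04 and 3.07e-07). The 3 h value missed the threshold over 16000 features (adjusted p = 0.0592). Its neighbour CCL22 had differences of -0.02, -0.36 and -0.43 at those times and CCL17 of -0.35, 0.60 and 0.45. CXCL9 and CXCL11, the other CXCR3 ligands beside CXCL10, had 0 to 10 and 0 to 3 reads per TMD8 library. Among 18 measured transcription factors known to act on chemokine genes, 1 fell in TMD8 at 1 h, 7 fell and 1 rose at 3 h, 7 fell at 6 h, and 9 fell and 6 rose at 24 h. The shares of all features called at those times were 0.05%, 4.73%, 12.6% and 54%. These factors were listed with earlier results of these data known, so the counts are a description and test no enrichment. EGR1, an early growth response factor, fell by 1.25 at 1 h (adjusted p = 1.59e-04) and fell by 2.37 at 3 h (adjusted p = 1.16e-10), and NFKB1 and REL, NF-kB subunits, by 0.28 and 0.29 (6.19e-05 and 0.0185). The other factors called in TMD8, among them those that rose, are not named here. In DOHH2 at 1 h, JUNB, an AP-1 subunit, was the 1 of 17 such factors called and fell by 0.72 (9.71e-05), where 0.375% of features were called.

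Across the 16 TMD8 libraries, the Pearson correlations of log2 values between members were highest for CXCL10 with CCL4 (0.724), CCL3 with CCL4 (0.715) and CCL22 with CCL17 (0.689). They were lowest for CCL22 with IL16 (-0.585), CCL17 with IL16 (-0.445) and CXCL13 with IL16 (-0.402). The libraries share the same times and treatments, so these values describe the common course and carry no test. By Pearson correlation over those libraries, the genes most like CXCL13 were PPM1G (0.956), CCND3 (0.951) and SMS (0.948). Those most like IL16 were RPP25 (0.970), BHLHE40 (0.960) and CYTIP (0.954), and those most like CCL22 were ITGAX (0.981), SMYD5 (0.978) and HLA-DRB5 (0.974). For CXCL10 they were IL2RB (0.882), GPR183 (0.880) and KLF6 (0.879), and for CCL17 PEX19 (0.939), SPAG7 (0.924) and FIS1 (0.921).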

How the data were processed

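RNA of TMD8 and DOHH2 cells, given CSKi or DMSO for 1, 3, 6 or 24 h, was sequenced in 32 paired-end stranded mRNA libraries (16 groups of 2). HTSeq and the build hg19 are named in the submitters' processing notes, with no version. No source used here names the aligner. The values are a normalized log2 score per gene in the table deposited by the authors, in which a gene without reads is set to 0. A first row of total mapped reads was set apart. Dividing by the value of 1 read recovered reads: of the values at or under 300 reads, 99.4% to 100.0% were whole within 0.1, and the recovered reads summed to 0.99996 to 1.00007 of the totals.

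Group means were fitted with limma 3.58.1 (R 4.3.3) per line (8 residual degrees of freedom), or over both lines for line differences, with a trended variance prior and Benjamini-Hochberg adjustment over the 12000 features of highest mean. The fits were tested on simulated data. Read ratios used exact binomial intervals (95%, scipy 1.17.1). Intervals cover counting error only. The genes, the lists and the rules for naming genes (all members, called genes of the lists, the 3 genes most like each member) were chosen with earlier results of these data known. Alternatives were the feature filter, the variance prior, quantile normalization, scaling to total reads, a pseudocount of 1, limma-voom, 1 fit of all libraries, a replicate block, and leaving out libraries. Same-numbered CSKi and DMSO libraries correlated at -0.48 to 0.17 in their deviations from the group means, so the numbers were not taken as pairs. Promoter windows came from RefSeq. Some results for single genes are not reported here.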

Additional observations from a re-analysis of the deposited data

Results flagged for a closer look

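The response of CXCL13 to CSKi in TMD8 differed between times (limma F test, adjusted p = 5.77e-08), with log2 differences of -0.23 at 1 h, -0.0025 at 3 h, 0.14 at 6 h and -2.99 at 24 h. The response of IL16 in TMD8 differed between times as well (adjusted p = 1.315e-11), with differences of 0.11 at 1 h, -0.33 at 3 h, -0.02 at 6 h and 0.66 at 24 h. Over 16000 features the response of CCL4 in TMD8 differed between times (adjusted p = 0.0399), with differences of -0.62 at 1 h, -3.49 at 3 h, -2.59 at 6 h and -2.10 at 24 h.

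Between the lines at 24 h, the response of TMD8 minus that of DOHH2 was 0.65 for IL16 (adjusted p = 0.003491), -2.85 for CCL4 (adjusted p = 0.04602) and -2.99 for CXCL13 (adjusted p = 9.352e-06). These 3 values use the DOHH2 24 h libraries, which stood against their labels, so no difference between the lines is drawn from them. CCL4 had 1 and 4 reads with CSKi in those libraries, against 0 and 2 with DMSO. CXCL13 had no reads in any of those 4 libraries, so its line difference equals its response in TMD8. It lay among the 16000 features of the line fit only through TMD8. Its adjusted p therefore restates the fall in TMD8 and cannot test a difference between the lines, because a response in DOHH2 could not be measured.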

How the results depend on the processing

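In TMD8, 4 calls of the members over the 4 times became 9 over 16000 features, 7 over all features with a value, 2 over 8000 and 1 in a fit of all 32 libraries, and 3 to 4 without any 1 library. In DOHH2 at 1, 3 and 6 h, 0 calls became 1 over 16000 features and 2 without the 24 h libraries, and stayed at 0 without any 1 library. Calls of a response that differed over time in TMD8 numbered 1, against 2, over 8000 features and in the fit of all 32 libraries, an alternative chosen after seeing the data, and were 2 to 3 without any 1 library. Line differences of the response at 1, 3 and 6 h gave 2 calls without the DOHH2 24 h libraries, against 0, and 0 without any 1 library. Vehicle changes over time in TMD8 gave 1 call over 8000 features and 0 in the fit of all 32 libraries, against 5, and 4 to 5 without any 1 library. Vehicle line differences gave 7 calls over 16000 features and over all features, against 1, and 1 without any 1 library. Of those 7, CXCL13 and CXCL10 passed the filter only through TMD8, and CCL22 had 6 reads over the DOHH2 DMSO libraries. Fewer or more members stand among the features tested in these filters. Elsewhere the cause was not tested. With the replicate block, TMD8 gave 4 calls and DOHH2 0, and with the DOHH2 24 h numbers crossed DOHH2 gave 0. Same-numbered libraries correlated at -0.48 in DOHH2 at 24 h and at -0.0051 to 0.17 elsewhere. The crossed block gave 50, 315, 136 and 0 calls over the 12000 features in DOHH2 at 1, 3, 6 and 24 h, against 45, 315, 106 and 0. Of 510 values of single genes under alternatives, 24 changed sign, none of them called in either setting.

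Over the 12000 features tested, calls in TMD8 at 3 h numbered 338 without the trended prior and 220 in the fit of all 32 libraries, against 568, and those at 6 h 684 in that fit, against 1518. At 1 h, 8000 features gave 2, against 6. In DOHH2, calls at 1 h were 246 without the 24 h libraries, 94 in the fit of all 32 and 27 without the trend, against 45. At 3 h they were 1745, 676 and 166, with 206 over all features with a value, against 315, and at 6 h 1635, 463 and 47, with 63 over all features and 216 by voom, against 106. At 24 h they were 7 over all features and 1 without the trend, against 0. The low read numbers of CCL3, CCL4 and the DOHH2 chemokines (0 to 2 reads per library for CXCL13, CXCL10 and CCL22) limit what was detectable at this depth.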
